A study of Mus musculus with 4 samples.

Results

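The 10 genes described here are Ly6c2, Plac8, Vcan, Gda, Ms4a4c, Ms4a6c, Ifi27l2a and Clec12a, all used as markers of blood monocytes or of the macrophages they give rise to, and the lysozyme genes Lyz1 and Lyz2. They were chosen by name, with earlier results of these data known, and each name matched 1 of the 54532 mouse genes measured. Messenger RNA was sequenced in bulk from tumour-associated macrophages of glioblastoma xenografts in mice, in 2 libraries from treatment with MK-8931 (verubecestat, a drug that blocks the protease BACE1) and 2 control libraries. The cells of both groups were sorted as live CD45+ CD11b+ Gr1- cells. The labels name neither the host strain nor the animals behind a library, and their protocol entries describe a treatment of glioma stem cells for 3 days, so how the compound reached the macrophages is not settled by them. Whether each library stands for its own animal is not stated either, so the p-values reflect the spread between these libraries, which may be technical. Library totals lay between 18257930 and 20179875 counts.

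Monocytes made in bone marrow circulate in the blood and enter tumours, where they turn into macrophages. Classical mouse monocytes carry much Ly6C on their surface, together with the chemokine receptor CCR2, and lose Ly6C as they mature in tissue. In a brain tumour these incoming cells lie beside microglia, the resident macrophages of the brain. The Gr1 antibody of the sort, clone RB6-8C5, is known to bind the neutrophil antigen Ly6G and also Ly6C, so the gate bears on Ly6c2 itself. Lysozyme cleaves the peptidoglycan of bacterial cell walls. In mice it is encoded by Lyz2, the form of macrophages and neutrophils, and by its neighbour Lyz1, the form of intestinal Paneth cells.

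Lyz1 and Ly6c2 each have a close copy, and how far sequencing reads can tell the copies apart bears on the values below. The Lyz1 gene (ENSMUSG00000069515) lay at chr10:117287797-117292868 and Lyz2 (ENSMUSG00000069516) at chr10:117277331-117282321, both on the minus strand of GRCm38 and 5475 bases apart. Their coding sequences are 447 bases long and differed at 22 positions (95.1% identical), with a longest identical run of 118 bases. The first 300 coding bases, from the GENCODE M21 transcripts, hold 20 of these differences, which are in capitals.
Lyz1 coding: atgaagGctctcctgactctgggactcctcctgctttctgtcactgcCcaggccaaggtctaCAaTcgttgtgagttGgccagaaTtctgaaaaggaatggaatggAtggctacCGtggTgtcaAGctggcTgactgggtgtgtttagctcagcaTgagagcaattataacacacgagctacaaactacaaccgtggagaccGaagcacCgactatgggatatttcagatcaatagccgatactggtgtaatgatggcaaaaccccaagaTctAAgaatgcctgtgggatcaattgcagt
Lyz2 coding: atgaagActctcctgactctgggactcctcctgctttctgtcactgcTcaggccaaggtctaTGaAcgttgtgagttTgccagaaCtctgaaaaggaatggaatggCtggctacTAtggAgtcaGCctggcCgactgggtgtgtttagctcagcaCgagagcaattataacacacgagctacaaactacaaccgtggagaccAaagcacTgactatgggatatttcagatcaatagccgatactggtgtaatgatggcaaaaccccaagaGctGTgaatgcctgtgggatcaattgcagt
The differences are scattered with gaps between them. Of 1214 windows of 50 bases in the Lyz1 transcript, 195 (16.1%) occurred unchanged in that of Lyz2, and of 1164 windows of 100 bases 24 did (2.06%). The promoters are close copies too. The 130 bases before the start of Lyz1 (chr10:117292869-117292998) and of Lyz2 (chr10:117282273-117282402), from RefSeq on GRCm38.p6, differed at 10 positions, again in capitals, and the 50 bases next to the start were identical.
Lyz1 promoter: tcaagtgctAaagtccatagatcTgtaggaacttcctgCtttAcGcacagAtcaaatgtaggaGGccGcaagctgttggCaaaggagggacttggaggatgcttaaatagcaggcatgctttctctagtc
Lyz2 promoter: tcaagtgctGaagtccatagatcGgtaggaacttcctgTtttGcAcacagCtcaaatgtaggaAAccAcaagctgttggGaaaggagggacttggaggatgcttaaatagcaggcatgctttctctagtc
Ly6c2 (ENSMUSG00000022584, chr15:75108158-75111970, minus strand) and its copy Ly6c1, an endothelial form, are closer still. Their 396 coding bases differed at 9 positions (97.7% identical), 7 of them among the first 300, shown in capitals.
Ly6c2 coding: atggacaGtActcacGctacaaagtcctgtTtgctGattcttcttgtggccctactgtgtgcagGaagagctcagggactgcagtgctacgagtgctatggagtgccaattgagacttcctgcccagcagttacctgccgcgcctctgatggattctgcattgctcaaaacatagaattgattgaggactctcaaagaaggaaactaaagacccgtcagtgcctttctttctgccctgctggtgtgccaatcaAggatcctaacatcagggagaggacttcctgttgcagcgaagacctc
Ly6c1 coding: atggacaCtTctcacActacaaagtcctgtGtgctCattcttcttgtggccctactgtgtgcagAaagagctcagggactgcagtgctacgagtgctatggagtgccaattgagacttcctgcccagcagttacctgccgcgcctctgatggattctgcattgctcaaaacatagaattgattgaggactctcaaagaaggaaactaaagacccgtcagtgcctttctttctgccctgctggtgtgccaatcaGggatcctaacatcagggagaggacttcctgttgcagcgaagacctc
Of 773 windows of 50 bases in the Ly6c2 transcript, 252 (32.6%) occurred unchanged in Ly6c1. Neither the read length nor the way shared reads were counted is given in the sources used here, so the values of Lyz1, Ly6c2 and Ly6c1 are uncertain.

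The levels of the 10 genes, compared per length as FPKM (counts scaled to gene length and library size), covered a wide range. Lyz2 had 3140 and 4418 FPKM with MK-8931 against 2991 and 4240 FPKM in controls, and ranked 4th of 13932 tested genes by mean FPKM. Ifi27l2a followed at 387.5 ± 133 FPKM over the 4 libraries (SD, n = 4). Ms4a6c (73.6 ± 7.75 FPKM) and Gda (56.4 ± 6.78 FPKM) came next, with ranges over the libraries that overlapped each other. Ms4a4c (15.7 FPKM), Lyz1 (14.7 FPKM), Clec12a (13.5 FPKM), Plac8 (13.05 FPKM) and Vcan (3.95 FPKM) formed a run in which each gene's range overlapped that of the next. Ly6c2 was last at 0.331 FPKM, and its highest library (0.799 FPKM) lay below the lowest library of Vcan (1.13 FPKM). Ly6c2, whose product marks the classical monocyte, was thus close to absent, while the lysozyme gene shared by monocytes and macrophages was among the most abundant.

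**Figure D1:**
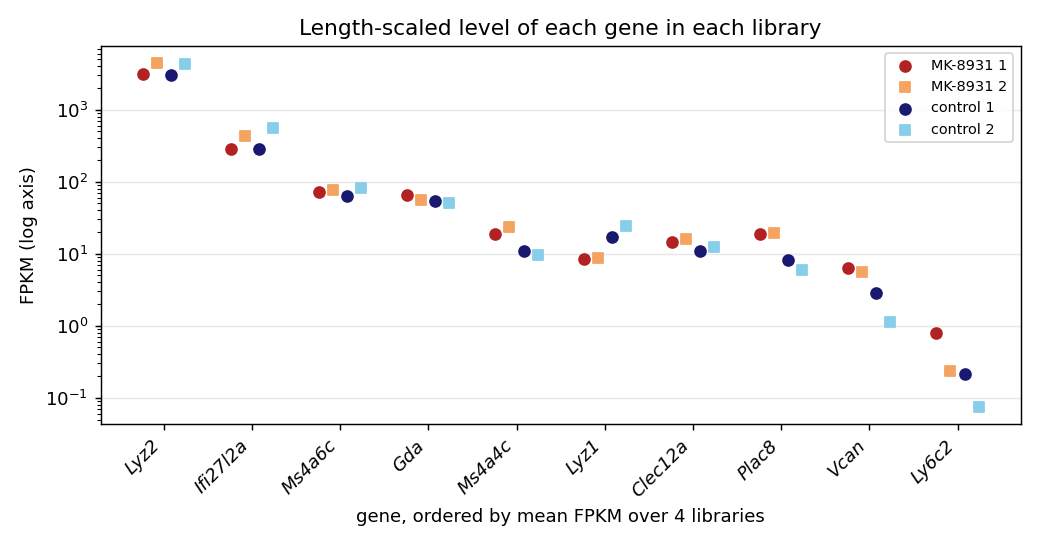
FPKM of the 10 genes (log axis) in the 2 MK-8931 and 2 control libraries, 1 point per library, ordered by mean. Lyz2 sits near the top of the axis at 2991 to 4418 FPKM and Ly6c2 at the bottom at 0.0748 to 0.799 FPKM, and Lyz1 is the gene whose MK-8931 points lie below both controls.

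Of the 10 genes, 2 rose with MK-8931 (Plac8 and Ms4a4c), 1 fell (Lyz1) and 7 did not pass. Calls are by edgeR's quasi-likelihood test at an adjusted p of 0.05 over all 13932 genes tested, of which 0.861% rose and 0.136% fell. All 10 genes passed the filter on low counts. Ly6c2, with 11 and 4 counts in controls, would not have passed on its controls alone. In 7 of the 10 the groups did not overlap in CPM (counts scaled to library size). Both MK-8931 libraries were above both controls in 6 and below both in 1 (Lyz1). Among the 6 was Ly6c2, with 12 counts in MK-8931 2 against 11 in control 1. Among all tested genes the groups did not overlap in 41.2%. The median log2 fold change of the 10 was 0.34, against 0.00 for all genes tested. In bulk RNA, more cells of a type and more RNA per cell cannot be told apart.

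Plac8, which encodes a small cysteine-rich protein of myeloid and lymphoid cells (chr5:100553725-100572245, minus strand), had 30.0 and 31.3 CPM with MK-8931 against 12.98 and 9.35 CPM in controls. The MK-8931 libraries were nearly equal and far above both controls. Its mean was 30.6 ± 0.962 CPM with MK-8931 and 11.2 ± 2.56 CPM in controls (SD, n = 2 each), a log2 fold change of 1.46 (SE 0.21, edgeR adjusted p = 0.0157). Each of the 11 other settings tried kept this call, with log2 fold changes from 1.24 to 1.70 and adjusted p from 1.07e-08 to 0.0249.

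Ms4a4c, a membrane-spanning protein of the MS4A family that is known to be induced by interferon (chr19:11404770-11427246, plus strand), had 33.3 and 41.6 CPM with MK-8931 against 19.0 and 16.6 CPM in controls. The groups were well separated. Its log2 fold change was 1.07 (SE 0.18, edgeR adjusted p = 0.0360), and the call was lost without MK-8931 2 (0.89, adjusted p = 0.199).

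Ms4a6c, the family member 42119 bases further along chromosome 19, did not pass. It had 149 and 159 CPM with MK-8931 against 131 and 167 CPM in controls, so that the controls enclosed the MK-8931 libraries (log2 fold change 0.05, SE 0.15, edgeR adjusted p = 0.954). Of 11 tested genes of the MS4A family, which includes the related Tmem176 genes, 1 rose and 0 fell, the 1 being Ms4a4c. The median log2 fold change of the family was 0.14. Ms4a4a, of the same subgroup as Ms4a4c, had 111 and 119 CPM with MK-8931 against 97.9 and 112 CPM in controls. Ms4a6d, of the subgroup of Ms4a6c, had 464 and 536 CPM with MK-8931 against 394 and 497 CPM in controls. Neither gene passed (edgeR adjusted p = 0.809 and 0.791).

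Vcan encodes versican, a large chondroitin sulphate proteoglycan that binds hyaluronan and is strongly expressed by classical monocytes (chr13:89655312-89742509, minus strand). It had 91.3 and 80.5 CPM with MK-8931 against 41.9 and 16.3 CPM in controls. The groups did not overlap, but the controls differed from each other more than the MK-8931 libraries did. The log2 fold change of 1.56 (SE 0.36) missed the threshold (edgeR adjusted p = 0.112). It was 2.39 without control 1, 1.03 without control 2, 1.46 without MK-8931 1 and 1.64 without MK-8931 2. It passed with limma-voom (1.72, adjusted p = 0.0419) and with no filter on low counts (1.55, adjusted p = 0.00359). In 7 of the 11 other settings it did not pass, among them DESeq2 (1.56, adjusted p = 0.273) and library size alone (1.58, adjusted p = 0.127). Among 14 tested genes of versican's partners and of the proteases that cut it, 0 rose and 1 fell. That gene was Adamts1, a protease that cleaves versican, at 12.3 and 12.4 CPM with MK-8931 against 26.5 and 29.6 CPM in controls (log2 fold change −1.18, SE 0.18, edgeR adjusted p = 0.0223). Cd44, a receptor for hyaluronan that was chosen after its values were seen, did not pass, with 529.6 and 543 CPM with MK-8931 against 404 and 391.8 CPM in controls (adjusted p = 0.176).

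Ly6c2 had 43 and 12 counts with MK-8931 against 11 and 4 counts in controls, or 2.21 and 0.652 CPM against 0.592 and 0.204 CPM. MK-8931 1 stood apart, and MK-8931 2 was within 1 count of control 1. Its log2 fold change of 1.84 had an SE of 0.92 (edgeR adjusted p = 0.545), and it was 0.70 without MK-8931 1 and 2.76 without control 1. The copy Ly6c1 had 42 and 43 counts with MK-8931 against 33 and 42 counts in controls (log2 fold change 0.19, adjusted p = 0.941), and for the summed copies the log2 fold change was 0.64 (adjusted p = 0.665). Of 5 tested genes of the Ly6 family, 0 were called by edgeR, DESeq2 or limma-voom, and 2 had an unadjusted p under 0.05 in edgeR's test. These were Ly6e and Ly6a. Ly6e, a GPI-anchored member, had 305 and 233 CPM with MK-8931 against 197 and 162 CPM in controls (adjusted p = 0.188). Ly6a, known as Sca-1, had 7.49 and 10.5 CPM with MK-8931 against 5.06 and 3.93 CPM in controls (adjusted p = 0.227).

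Clec12a, an inhibitory C-type lectin receptor of monocytes and granulocytes that binds uric acid crystals (chr6:129342691-129365303, plus strand), had 81.7 and 90.0 CPM with MK-8931 against 60.3 and 67.7 CPM in controls. Every MK-8931 value was above every control value, yet by little, and the log2 fold change of 0.42 (SE 0.14) did not pass (edgeR adjusted p = 0.285). Gda, guanine deaminase, which turns guanine into xanthine on the way to uric acid (chr19:21391307-21473445, minus strand), was likewise higher in both MK-8931 libraries, at 406 and 348 CPM against 330.4 and 305 CPM in controls (log2 fold change 0.25, SE 0.13, adjusted p = 0.580). Of 14 tested genes of purine breakdown, Gda among them, 0 were called by edgeR, DESeq2 or limma-voom and 0 had an unadjusted p under 0.05 in edgeR's test. Their median log2 fold change was 0.09. Ampd3, the AMP deaminase with the next smallest p after Gda, had 72.3 and 78.7 CPM with MK-8931 against 66.1 and 60.5 CPM in controls (adjusted p = 0.593).

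Ifi27l2a, a small interferon-induced protein (chr12:103442167-103443680, minus strand), did not pass and its groups overlapped. It had 132 and 199 CPM with MK-8931 against 131 and 258 CPM in controls. The spread within each group was wide and library 2 was the higher one in both (log2 fold change −0.24, SE 0.30, edgeR adjusted p = 0.867). The direction turned with the library left out, at 0.33 without control 2, 0.02 without MK-8931 1 and −0.65 without control 1 (adjusted p = 0.0397). Ifi27, the related gene that was also tested, had 51.1 and 61.9 CPM with MK-8931 against 61.3 and 82.5 CPM in controls (adjusted p = 0.571), and of these 2 genes 0 were called by DESeq2 or limma-voom and 0 had an unadjusted p under 0.05 in edgeR's test. Of 30 tested type I interferon-stimulated genes, 0 rose and 0 fell in edgeR's test, where 11 had an unadjusted p under 0.05. The share of all tested genes with such a p is not given here, so that count is a description only. DESeq2 called 4 of them and limma-voom 1, and the median log2 fold change was 0.17. The smallest p belonged to Oasl2, a relative of the antiviral oligoadenylate synthetases, at 96.6 and 92.2 CPM with MK-8931 against 59.0 and 45.1 CPM in controls (adjusted p = 0.0517). Ifitm3, which blocks virus entry, had 135 and 140 CPM with MK-8931 against 96.5 and 80.0 CPM in controls (adjusted p = 0.0879).

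**Figure D2:**
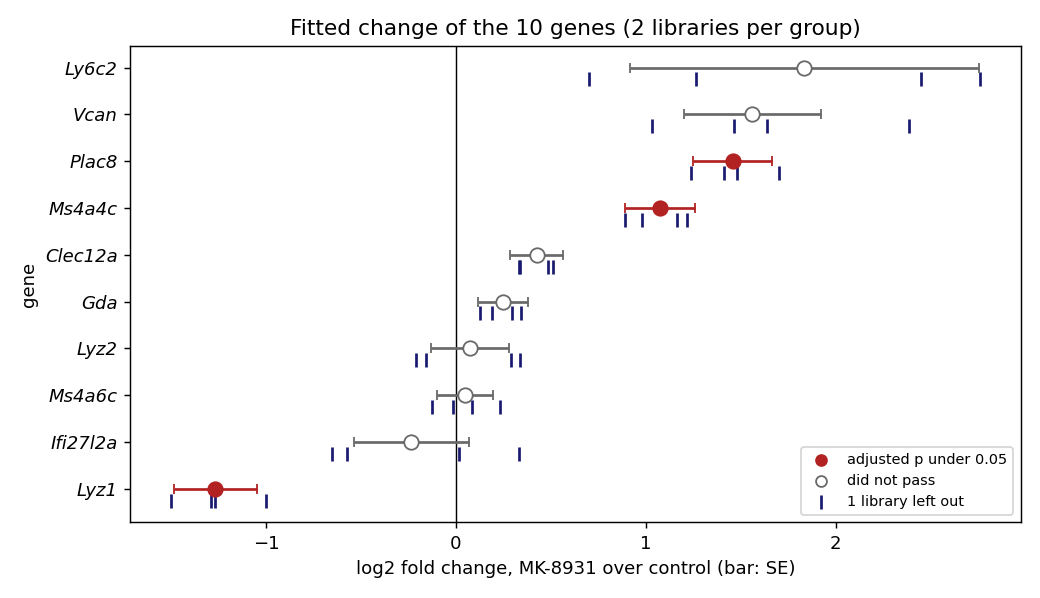
Fitted log2 fold change of each gene, MK-8931 over control, with its SE (2 libraries per group). Filled points passed and open points did not, and ticks give the fit with 1 library left out. Plac8 (1.46), Ms4a4c (1.07) and Lyz1 (−1.27) are filled, while the ticks of Ly6c2 run from 0.70 to 2.76.

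The lysozyme genes differed in level, and Lyz1 passed the test while Lyz2 did not. Lyz2 took 0.420% and 0.591% of all counts with MK-8931 and 0.400% and 0.540% in controls. In CPM it stood at 4162 and 5863 with MK-8931 against 3959 and 5566 in controls. Library 2 was the higher one in both groups, and the groups overlapped (log2 fold change 0.07, SE 0.20, edgeR adjusted p = 0.950). Lyz1 had 212 and 202 counts with MK-8931 against 406 and 602 counts in controls. That is 10.9 and 11.0 CPM with MK-8931 against 21.9 and 30.8 CPM in controls, a log2 fold change of −1.27 (SE 0.22, edgeR adjusted p = 0.0360). Its fall was lost as a call without MK-8931 1 (adjusted p = 0.0700) or MK-8931 2 (0.0754), with the value still at −1.27 and −1.29. With the counts of both genes summed the log2 fold change was 0.07 (adjusted p = 0.953), since Lyz2 makes up nearly all of the sum.

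The share of Lyz1 in the pair does not depend on how libraries are scaled to each other. It was 0.261% and 0.187% with MK-8931 against 0.549% and 0.550% in controls. Exact 95% binomial intervals, which cover counting error only, were 0.227% to 0.298% and 0.162% to 0.215% with MK-8931, and 0.497% to 0.605% and 0.507% to 0.595% in controls. The controls agreed within counting error, with 108923 Lyz2 counts in control 2 and 73520 in control 1. Whether reads of Lyz2 were counted to Lyz1 was not tested. The MK-8931 libraries were both lower, and their intervals did not overlap those of the controls. The intervals of the MK-8931 libraries did not overlap each other either, so libraries of this group differed beyond counting error. The mean share was 0.224% ± 0.0521 with MK-8931 and 0.549% ± 3.17e-04 in controls (SD, n = 2 each). An exact two-sided permutation test over 2 against 2 libraries gave p = 0.333, the smallest it can give. The other 8 genes of the Paneth cell list, such as the alpha-defensins, held at most 20 counts in a library (Itln1 in MK-8931 1) and none was tested, with 7 and 6 of the 9 listed genes at 0 with MK-8931 and 7 and 7 in controls. Among further lysozyme relatives, Lyzl4 was tested and had 4 and 46 counts with MK-8931 against 23 and 32 counts in controls (edgeR adjusted p = 0.988).

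**Figure D3:**
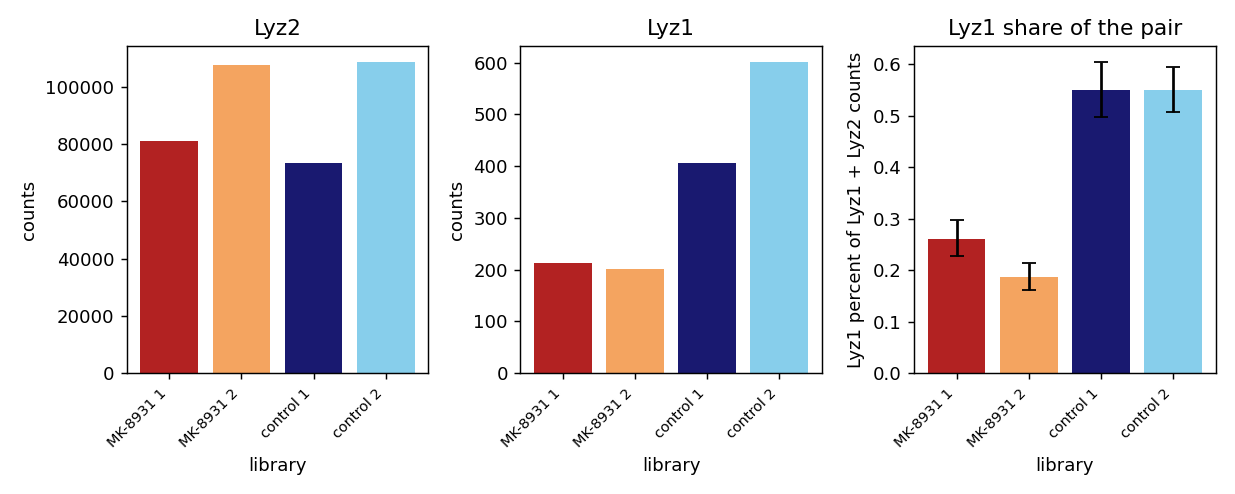
Unscaled counts of Lyz2 and of Lyz1, and Lyz1 as a percent of the counts of both, in each library (bars from 0; error bars on the share are exact 95% binomial intervals). The Lyz1 bars with MK-8931 stand at 212 and 202 against 406 and 602 in controls, and its share at 0.261% and 0.187% against 0.549% and 0.550%, while the Lyz2 bars are higher for library 2 in both groups.

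Other genes of classical monocytes rose in part. Of 19 tested, with none of the 10 genes among them, 5 rose and 0 fell, and the median log2 fold change was 0.55. Among those that rose were Hp, Chil3, Thbs1 and Ccr2, the last 3 named after their values were seen. Hp, which encodes the haemoglobin-binding protein haptoglobin, had 42.5 and 67.4 CPM with MK-8931 against 6.03 and 7.20 CPM in controls (log2 fold change 3.05, SE 0.25, edgeR adjusted p = 8.87e-04). Ccr2, a chemokine receptor needed for monocytes to leave the marrow, had 133 and 145 CPM with MK-8931 against 69.0 and 40.01 CPM in controls (log2 fold change 1.35, SE 0.23, adjusted p = 0.0359). Abundant members such as Fn1, the fibronectin gene, overlapped between the groups (5539 and 5028 CPM with MK-8931 against 5697 and 5375 CPM in controls), and F13a1, coagulation factor XIII, had 1399 and 1373 CPM with MK-8931 against 1139 and 1120 CPM in controls (adjusted p = 0.397). These 2 were also chosen after their values were seen. Of 14 genes of patrolling monocytes, the Ly6C-low kind, 1 rose and 0 fell (median 0.52). It was Pglyrp1, a peptidoglycan recognition protein also held in neutrophil granules, at 5.49 and 7.12 CPM with MK-8931 against 0.377 and 0.307 CPM in controls (adjusted p = 0.00433). With 7 and 6 counts in controls, Pglyrp1 passed the filter on low counts only through the MK-8931 libraries, so its direction is a description only.

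Most tested markers of neutrophils were higher with MK-8931. Of 16 tested, 14 rose and 0 fell, with a median log2 fold change of 3.12. Hdc and Cxcr2 had the smallest p, and Hdc stood at 77.7 and 105 CPM with MK-8931 against 1.56 and 2.09 CPM in controls. Some of the 16 had few counts in controls: G0s2 0 and 7, Stfa2l1 4 and 9, Ltf 10 and 1, and Prtn3 11 and 5. These genes would not have passed the filter on low counts on their controls alone, so their direction is a description only. Summed over the 22 listed genes the level was 1345 and 2087 CPM with MK-8931 and 501 and 459 CPM in controls. Mmp9, chosen after its values were seen, alone gave 632 and 939 CPM with MK-8931 and 375 and 349 CPM in controls. It thus made up most of the control sums. Elane and Fcnb were at 0 in every library, and Ly6g, which encodes the neutrophil antigen of the Gr1 antibody, had 0 and 14 counts with MK-8931 and 0 and 0 in controls. Hp, Chil3, Plac8 and Clec12a are known to be expressed by neutrophils as well as monocytes. The part of neutrophil RNA in the values of Plac8, Ms4a4c, Clec12a and Vcan was not tested. Dendritic cell markers also rose in part, with 2 of 12 tested genes risen, 0 fallen, 10 fitted above 0 and a median of 0.90. Their summed level was 313 and 387 CPM with MK-8931 and 256 and 219 CPM in controls. Of these sums Itgax alone gave 174 and 219 CPM with MK-8931 and 163 and 124 CPM in controls. Zbtb46 (log2 fold change −1.11, edgeR adjusted p = 0.606) and Clec10a (−0.21, adjusted p = 0.761) were fitted below 0. Zbtb46 had 0.667 and 1.03 CPM with MK-8931 against 1.78 and 1.89 CPM in controls. Clec9a, fitted above 0, had 2 and 5 counts in controls and would not have passed the filter on low counts on its controls alone. Itgax, Zbtb46, Clec9a and Clec10a were chosen after their values were seen. H2-Ab1, an MHC class II gene, had 69.0 and 90.7 CPM with MK-8931 against 35.9 and 25.7 CPM in controls (log2 fold change 1.37, edgeR adjusted p = 0.0205). The chemokine gene Ccl22 had 10.4 and 8.37 CPM with MK-8931 against 2.75 and 2.71 CPM in controls (1.78, adjusted p = 0.0323).

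Markers of the sorted cells themselves were present throughout. The 13 macrophage markers, among them Csf1r at 1583 and 1490 CPM with MK-8931 and 1619 and 1548 CPM in controls, summed to 28794 and 29509 CPM with MK-8931 and 32342 and 39890 CPM in controls. Of them 1 rose, Itgam (log2 fold change 0.75, edgeR adjusted p = 0.0485), which encodes the CD11b of the sort, and 0 fell. The median log2 fold change of the 13 was −0.17, with 3 fitted above 0, and 7 had both MK-8931 libraries below both controls. Of all 13932 genes tested, 6904 were fitted above 0 and 2790 had both MK-8931 libraries below both controls. In edgeR's test 7 had an unadjusted p under 0.05, DESeq2 called 3 (Apoe, C1qc and Itgam) and limma-voom called Itgam. Of 12 tested microglial markers 0 rose and 0 fell in edgeR's test (median −0.34), where 6 had an unadjusted p under 0.05. Of the 12, 3 were fitted above 0 and 7 had both MK-8931 libraries below both controls. DESeq2 called 3 of the 12 (Fcrls, Gpr34 and P2ry12, each fitted below 0 by edgeR) and limma-voom 0. Gpr34 had the smallest p among them, at 58.1 and 70.5 CPM with MK-8931 against 106 and 175 CPM in controls (adjusted p = 0.0609). The sum over the microglial list was 3528 and 3613 CPM with MK-8931 against 4044 and 4519 CPM in controls, and Sall1, a defining factor of microglia, had 0 and 7 counts with MK-8931 and 0 and 0 in controls. Csf1r and Sall1 were chosen after their values were seen. Lymphocyte markers summed to 35.04 and 41.9 CPM with MK-8931 and 45.1 and 56.8 CPM in controls, with 0 of 2 tested genes passing in edgeR, DESeq2 or limma-voom, Cd4 (edgeR adjusted p = 0.196, the 1 with an unadjusted p under 0.05) and Cd79b (0.725). Endothelial, fibroblast and glial markers summed to 691 and 1058 CPM with MK-8931 and 690 and 324 CPM in controls, with 0 of 9 tested genes passing in edgeR's test, 4 of them at an unadjusted p under 0.05. DESeq2 called 1 and limma-voom 0. Pecam1 (log2 fold change 1.53, adjusted p = 0.0993) and Cdh5 (−0.95, adjusted p = 0.351) had the smallest p of that list and opposite signs.

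**Figure D4:**
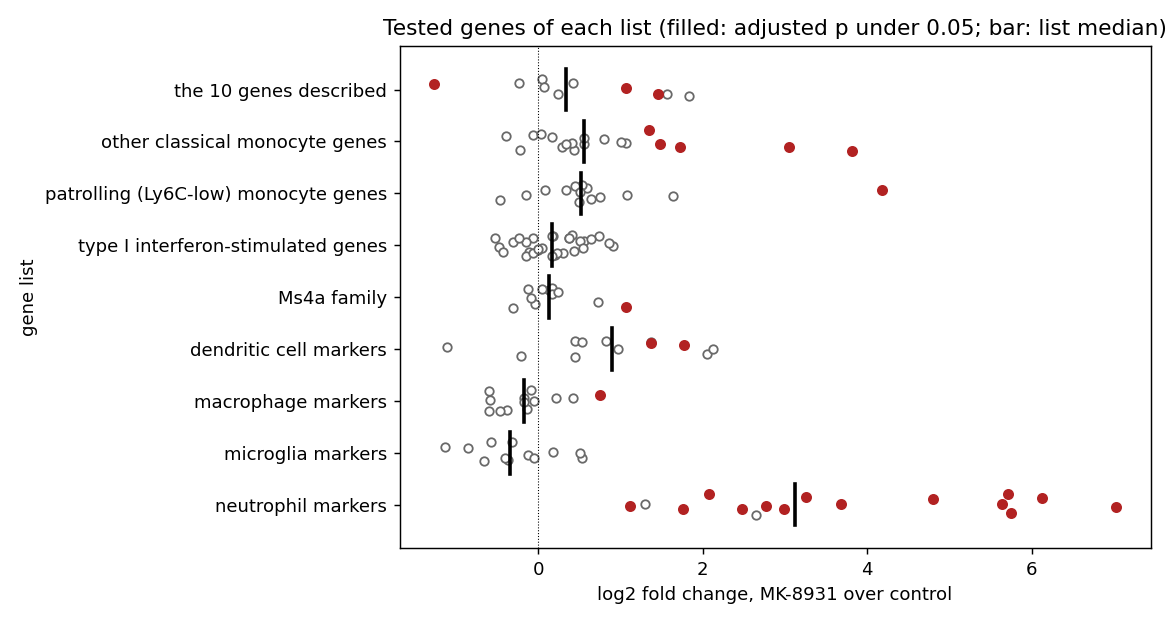
Log2 fold change, MK-8931 over control, of every tested gene in 9 gene lists. Filled points passed, open points did not, and the black bar is the list's median. The 10 genes described have a median of 0.34, the other classical monocyte genes 0.55, microglial markers −0.34 and neutrophil markers 3.12.

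The genes closest in pattern to Ly6c2 and Lyz1 were sought among 6836 genes of at least 20 CPM by the root mean square distance of centred log2 CPM over the 4 libraries. For Lyz1 they were Fkbp5, a glucocorticoid-induced co-chaperone (distance 0.10), Adamts1 (0.12) and Dnajb4, a heat-shock co-chaperone (0.14). Fkbp5 had 110 and 110 CPM with MK-8931 against 209 and 261 CPM in controls, the same near equality with MK-8931 and excess in control 2 as Lyz1. For Ly6c2 they were Hsph1 (0.25) and Hspa1b (0.47), both heat-shock chaperones, and Thbs1 (0.47), the thrombospondin-1 gene. Hsph1 had 202 and 94.9 CPM with MK-8931 against 62.5 and 38.4 CPM in controls, with MK-8931 1 highest and control 2 lowest as for Ly6c2. With 4 libraries such likeness is a description only.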

How the data were processed

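The authors deposited raw counts for 4 libraries, per the file headers. They also deposited FPKM values, which equal the count divided by gene length times a constant per library and so were used for levels only. A further 4 columns in total, which hold values of single libraries, were not used. The authors' deposited table also gives their own log2 fold changes and p-values with no test named: for Plac8 1.45 (adjusted p = 9.07e-06), Ms4a4c 1.06 (8.65e-04), Lyz1 −1.28 (6.3e-04) and Vcan 1.55 (0.288). CASAVA and mm9 are named in the submitters' processing notes, but of 54495 gene identifiers shared with GENCODE M21, 53585 (98.3%), the 10 genes among them, have the coordinates of GRCm38, so GRCm38 is given. None of the aligner, the counting tool and the use of strand is given in the sources used here.

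Genes were kept by filterByExpr (minimum count 10), which left 13932, scaled by TMM (factors 0.971 to 1.01) and tested with edgeR 4.0.16 in R 4.3.3 (glmQLFit with robust dispersions, glmQLFTest, two-sided). A gene can pass this filter through the libraries of a single group. P-values were adjusted over all genes by the Benjamini-Hochberg method. Counts of genes with an unadjusted p under 0.05 in a list are given without the share over all genes tested, and are descriptions only. The SE is the absolute log2 fold change over the square root of F. Libraries of a group differed beyond sampling noise, with a chi-square of 15.7 per degree of freedom between the MK-8931 libraries and 26.8 between the controls, so none was counted as a repeat. A gene with 0 counts has at most 0.149 to 0.164 CPM (3 counts), for counting error only. Promoter entries were found for 9 of the 10 genes. The 10 genes, the 16 other lists and the rule for named genes were chosen with earlier results of these data known. The rule takes the 10 genes, their closest copies, from each list up to 2 passing genes in each direction by smallest p (or the 2 of smallest p in lists with no call), and the 3 genes nearest in pattern to Ly6c2 and Lyz1. A named gene is not reported here. Alternatives were DESeq2 1.42.0, limma-voom (limma 3.58.1), other scalings, no filter, a replicate block, summed copies and leaving out each library.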

Additional observations from a re-analysis of the deposited data

How the results depend on the processing

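Of all genes, 120 rose and 19 fell. DESeq2 gave 262 and 95, no filter on low counts 366 and 176, and limma-voom 124 and 30. Leaving out 1 library gave 85 to 520 higher and 10 to 243 lower (85 and 10 without MK-8931 2, 520 and 243 without control 1, 47 lower without control 2). Of the 10 genes, 1 to 3 were then called higher and 0 to 2 lower, and 0 were called lower with copies summed, where the Lyz1 value became that of the sum, 0.069. In the other cases the cause was not tested. Directions turned when 1 library was left out for Ms4a6c (range −0.13 to 0.23; −0.01 without MK-8931 2, −0.13 without control 1), Lyz2 (−0.21 to 0.34; −0.21 and −0.16 without the same libraries) and Ifi27l2a (−0.65 to 0.33; 0.02 without MK-8931 1, 0.33 without control 2). The Lyz1 share stayed lower with MK-8931, by −0.362 to −0.289 percentage points. Same-numbered libraries deviated together (correlation 0.197), but with 2 pairs and no label behind the numbers they were not taken as pairs. With the replicate number as a block 468 genes rose and 275 fell, Clec12a passed (adjusted p = 0.0297), and 10 of the other classical monocyte genes rose in place of 5. Scalings moved the median of all genes by less than 0.1. A leave-one-out fit assumes that the lone library of a group varies like the others. Ly6c2 rests on the fewest counts of the 10 genes, 4 to 43 in a library, and the part of depth in its missed call was not tested.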
